A study of Mus musculus with 2 samples.

Results

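Tumour-like and fibroblast-like cells were taken from single-cell RNA sequencing of mouse liver metastases as the cells that carried keratin or collagen transcripts and none of 5 immune or endothelial transcripts. A cell was selected when it had at least 1 UMI, a count of 1 tagged RNA molecule, for at least 2 of Krt8, Krt18, Col1a1, Col1a2, Col3a1 and Sparc, and 0 UMIs of Ptprc, Ptprb, Stab2, Cd3e and Csf1r. The rule selected 166 of 19999 filtered cells, with 103 of 9814 cells in the control library and 63 of 10185 in the knockdown library.

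The study asked how SLAMF3 on colorectal cancer cells shapes the immune environment of their liver metastases. SLAMF3 is the product of Ly9 and belongs to the SLAM receptors, which lymphocytes use to bind one another. MC38-LM3b cells, a derivative of the C57BL/6 mouse colon adenocarcinoma line MC38 that metastasises to the liver, were injected into the spleen of C57BL/6 mice aged 6 to 8 weeks. In the Ctrl group the tumour cells carried a scrambled short hairpin RNA, and in the KD group they carried a hairpin against SLAMF3. The hairpins were in the injected cells only, and the host mice carried none. Lesions of 3 mice were pooled for each group after 2 weeks, cells were enriched for the immune surface protein CD45, and each pool gave 1 library. There was therefore no replicate in either group, no test was made, and every interval given is an exact 95% interval that covers counting error only. Transcript levels are given as CPM, the UMIs of a gene per 1000000 UMIs of the cells named.

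Krt8 and Krt18 encode the paired keratins of simple epithelia, which carcinoma cells usually keep when they spread. Col1a1, Col1a2 and Col3a1 encode the chains of fibrillar collagens, which fibroblasts and activated hepatic stellate cells deposit around a tumour. Sparc encodes a matrix protein made by fibroblasts, by endothelial cells and by many tumour cells. Carcinoma cells and fibroblasts lack CD45, so the enrichment selects against them.

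The hairpins are shown because they define the groups. The target of the KD hairpin was found in 5 transcripts, all of Ly9, among 141767 mouse transcripts, and the scrambled target was found in none. In Ly9-202 the target lies in the coding part of exon 3 of 10, at chr1:171601975-171601995 on the minus strand of GRCm38. Both are written 5′ to 3′ in lower case because no base is singled out.
shRNA-SLAMF3#2: caccctaatctgcactgtaaa
shRNA-Scramble: caacaagatgaagagcaccaa

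The selected cells were deeper than the libraries as a whole, with a median of 12303 UMIs in Ctrl and 12494 in KD against library medians of 5411.5 and 4989. Their share was 1.05% in Ctrl, with an interval of 0.857% to 1.27%, and 0.619% in KD, with an interval of 0.476% to 0.791%, a difference of -0.431 percentage points (-0.695 to -0.173). The CD45 enrichment sets how many such cells remain, so these are shares of what passed it and not of the lesions. Cells selected by Ptprb or Stab2, the endothelial genes that the rule bars, differed the other way, at 1.27% in Ctrl and 4.72% in KD. The libraries shared 24 barcodes among filtered cells, and none belonged to a selected cell. At the edge of the rule, 17 Ctrl and 11 KD cells had exactly 2 of the 6 genes, with a median of 3207 and 4342 UMIs, of which 12.7 and 11.3 per 10000 were of the 6 genes. Just outside it, 31 and 36 cells had exactly 1 of the 6 genes, with a median of 2833 and 1031.5 UMIs, of which 4.16 and 11.4 per 10000 were of that gene. A further 52 Ctrl and 37 KD cells had enough of the 6 genes but also a UMI of a barred gene.

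Because the rule joins epithelial and stromal genes, each cell was described by which of them led. Keratin-led cells had at least 2 UMIs of Krt8 and Krt18 together and more of these than of Col1a1, Col1a2 and Col3a1 together, and collagen-led cells were the reverse. In Ctrl 84 of the 103 cells were keratin-led, 11 were collagen-led and 8 had no lead. In KD 43 of the 63 cells were keratin-led, 16 were collagen-led and 4 had no lead. Keratin-led cells thus formed 81.6% (72.7% to 88.5%) of the Ctrl selection and 68.3% (55.3% to 79.4%) of the KD selection. Keratin-led cells seldom carried both kinds of gene, since 77 and 38 of them had no UMI of the 3 collagen genes. Collagen-led cells did so more often, and 5 of the 11 in Ctrl and 10 of the 16 in KD had no UMI of Krt8 or Krt18. The class is a range of a score and not a type, and in 10 Ctrl and 4 KD cells the lead was 1 UMI or fewer.

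**Figure D1:**
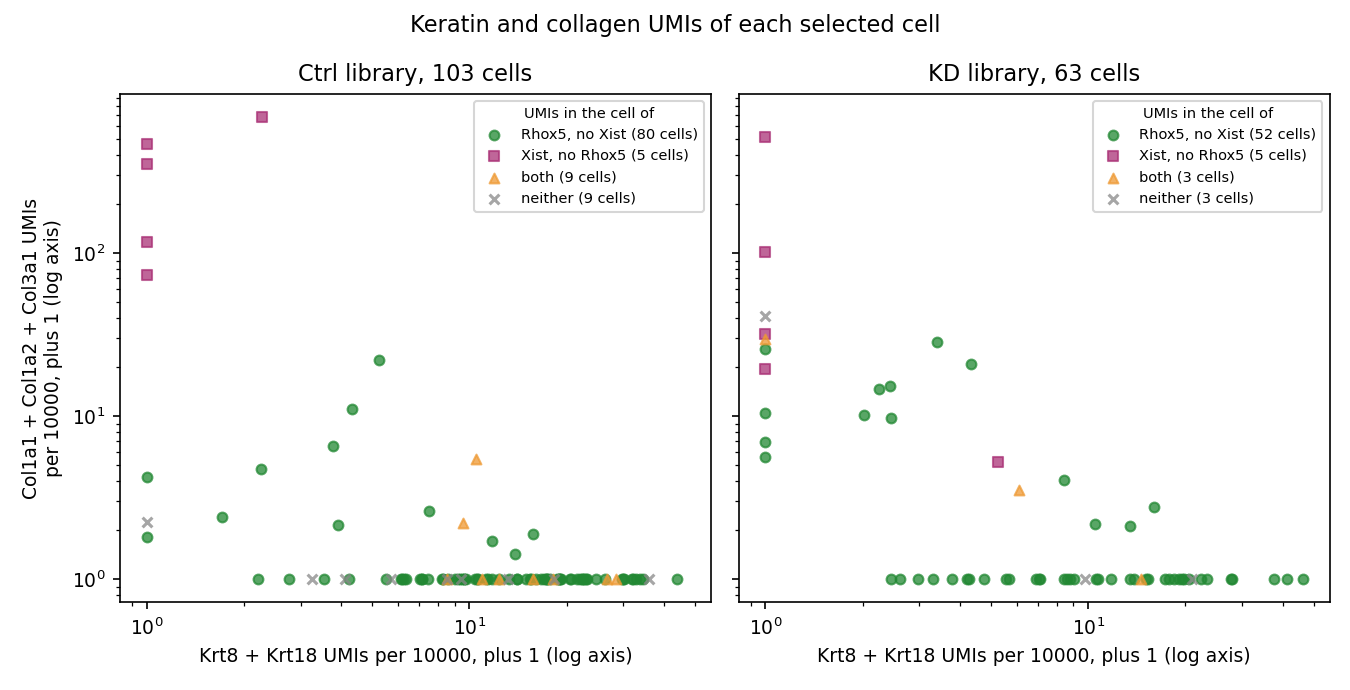
Each point is 1 selected cell, with its Krt8 and Krt18 UMIs per 10000 (plus 1) on the log x axis and its Col1a1, Col1a2 and Col3a1 UMIs per 10000 (plus 1) on the log y axis, in Ctrl (103 cells, left) and KD (63 cells, right). Marks show whether the cell had a UMI of Rhox5, of Xist, of both or of neither: the cells highest in collagen were Xist cells without Rhox5, and the row of cells along the bottom, with keratin and no collagen, mostly had Rhox5.

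SLAMF3 itself could not be followed at this depth. Ly9 had 6 UMIs in 5 of the 84 Ctrl keratin-led cells, which is 5.03 CPM (1.85 to 10.9), and 0 UMIs in the 43 KD cells, where 3 UMIs would be 5.04 CPM. At the Ctrl level 2.99 UMIs would be expected in KD, so a difference was not detectable. Trac, a T cell receptor gene that these cells should lack, also had 6 UMIs in Ctrl and 2 in KD, so the Ctrl level of Ly9 was no higher than that of a gene from another cell type. Cells with a Cd3e UMI had Ly9 at 22.4 and 28.0 CPM and cells with a Csf1r UMI at 22.8 and 20.0 CPM.

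Keratin-led cells carried 13.0 keratin UMIs per 10000 at the median in Ctrl (1.77 to 42.9 over the 84 cells) and 12.5 in KD (1.46 to 45.3 over the 43 cells). These values follow from the selection. Among genes that the rule did not use, the leading genes over all other cells were Nppb, Rhox5, Tpm2, Cavin3 and Krt19, followed by Il24, Cda, Kif21a, Prkg2, Pcdh7, Flnc, Gli3 and Col5a3. Rhox5, an X-linked homeobox gene of the reproductive tract that is also expressed in many mouse tumour lines, stood at 1424 CPM in Ctrl and 1459 CPM in KD, against 11.9 and 10.6 CPM in the cells outside the selection. Nppb, which encodes the precursor of brain natriuretic peptide, stood at 557 and 437 CPM against 4.82 and 1.25 CPM. Krt19, a further keratin of simple epithelia, stood at 352 and 338 CPM against 2.27 and 3.12 CPM. Tpm2 (tropomyosin), Cavin3 (a coat protein of caveolae) and Flnc (a filamin) belong to the cytoskeleton and cell membrane, and Il24 encodes a cytokine of the IL-10 family. Pcdh7, a protocadherin, and Gli3, a transcription factor of Hedgehog signalling, were higher still in collagen-led cells, where Pcdh7 stood at 1166 and 742 CPM and Gli3 at 442 and 207 CPM.

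The epithelial label held for keratins and little else. Of 16 epithelial markers, 7 had a UMI in Ctrl keratin-led cells and 6 in KD. Epcam, the epithelial adhesion molecule, had 2 UMIs in each library, and Cdh1, which encodes E-cadherin, had 2 and 0 UMIs. Elf3, an epithelial transcription factor, had 11 and 3 UMIs. Krt20, the keratin of differentiated intestinal epithelium, had 5 and 6 UMIs. Krt7, Cldn3, Cldn4, Cldn7, Lgals4, Vil1, Cdx1, Cdx2 and Muc13 had 0 UMIs in both libraries, where 3 UMIs would be 2.52 CPM in Ctrl and 5.04 CPM in KD. These cells carried Vim, the intermediate filament gene of mesenchymal cells, at 3452 and 4430 CPM, and Sparc, a gene of the rule, at 603 and 793 CPM. The level of Vim outside the selection is not given here, so it cannot be read as particular to these cells. Of 20 fibroblast genes, which include Sparc, 12 had a UMI in Ctrl and 11 in KD. The list summed to 893 and 1143 CPM, against 188 and 162 CPM outside the selection. Sparc gave 719 of its 1065 UMIs in Ctrl and 472 of 680 in KD, so this contrast depends on the selection. The list without the genes of the rule was not compared. Col5a1, which the rule did not use, stood at 59.5 and 40.3 CPM against 1.40 and 0.755 CPM outside. Other genes of the list, among them Dcn, Lum and Col1a2, had 0 UMIs. The cells are therefore called keratin-led below, and not epithelial.

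Markers of hepatocytes and blood cells were low in keratin-led cells. Alb, the main secreted protein of hepatocytes, and all 4 haemoglobin genes had 0 UMIs, and the 10 hepatocyte markers had 3 and 1 UMIs in all. The 7 markers of cholangiocytes, the cells of the bile ducts, were not low. They summed to 828 CPM in Ctrl and 689 CPM in KD, against 174 and 129 CPM outside the selection, and most of this came from Krt19 (352 and 338 CPM), Spp1 (394 and 271 CPM) and Sox9 (77.1 and 75.6 CPM), while Krt7 had 0 UMIs. Krt19 is also a general epithelial gene. Of the mesothelial markers only Msln was seen, with 19 and 6 UMIs. The 7 macrophage markers summed to 127 CPM in Ctrl and 99.1 CPM in KD, against 12500 and 12442 CPM in cells with a Csf1r UMI. Granulocyte markers stood at 22.6 CPM in Ctrl and 75.6 CPM in KD keratin-led cells, and at 2038 and 14726 CPM in the cells outside the selection. Endothelial markers stood at 16.8 and 52.1 CPM against 254 and 933 CPM outside, and T cell markers at 14.3 and 5.04 CPM against 1524 and 730 CPM. The granulocyte and endothelial markers in keratin-led cells thus differed between the libraries in the same direction as outside the selection. The T cell values rest on 17 and 3 UMIs, and the interval of their log2 ratio includes 0 (-3.91 to 0.29). The macrophage ratio of -0.36 (-0.82 to 0.08) had the opposite sign to the 0.11 outside the selection. The part of these UMIs in the differences below was not tested.

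**Figure D2:**
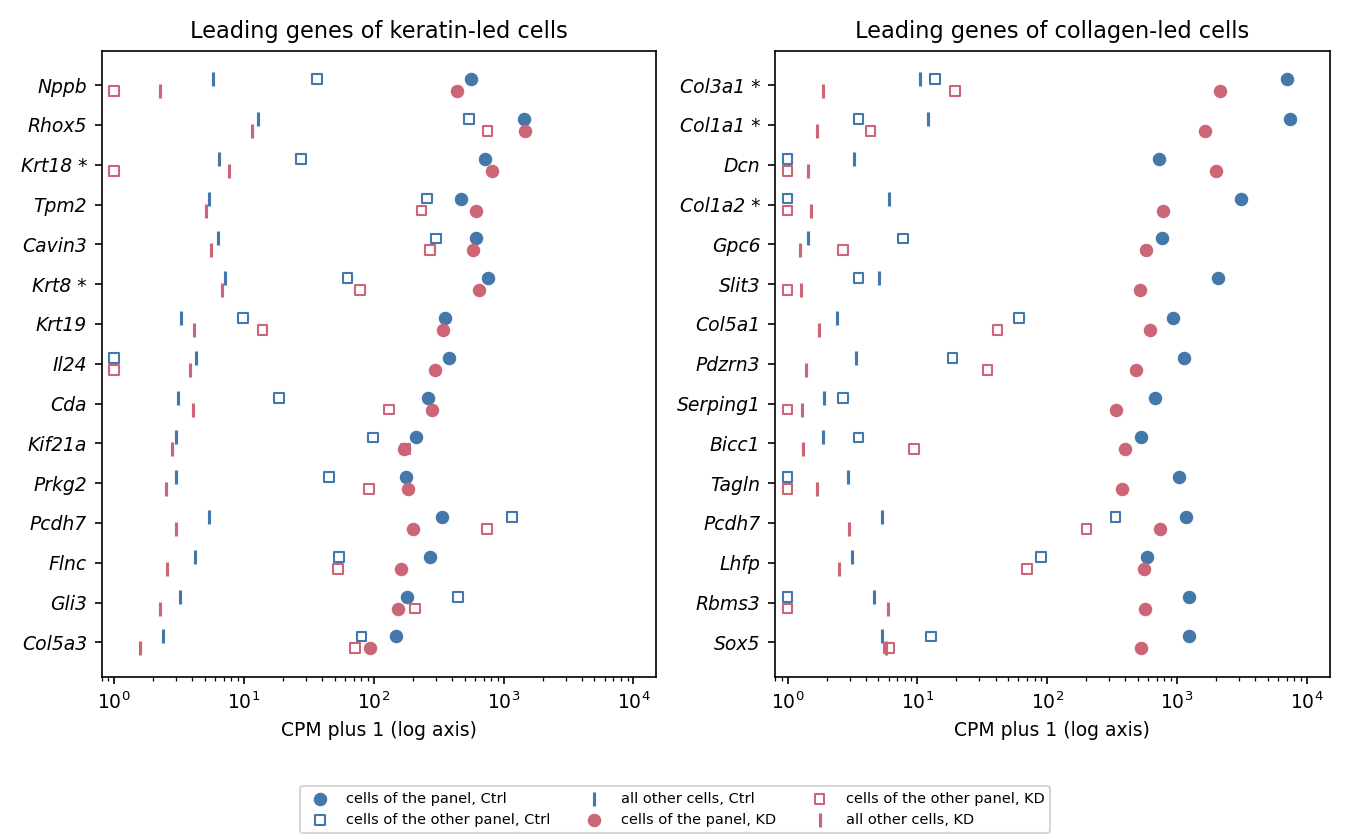
CPM plus 1 (log axis) of the 15 genes that led keratin-led cells (left) and collagen-led cells (right) over all other filtered cells, in Ctrl (blue) and KD (red). Filled circles are the cells of the panel, open squares the cells of the other panel and ticks all cells outside the selection, and an asterisk marks a gene of the selection rule. Rhox5, Tpm2 and Cavin3 were also high in collagen-led cells, whereas Krt19 and Il24 were not.

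Rhox5 and Xist set the keratin-led cells apart from the other cells of the lesions. Xist is the non-coding RNA that coats the inactive X chromosome and is made only where a second X chromosome is silenced. A Rhox5 UMI was found in 79 of 84 Ctrl and 41 of 43 KD keratin-led cells, against 92 of 9711 and 87 of 10122 cells outside the selection. An Xist UMI was found in 9 of the 84 cells (10.7%, 5.02% to 19.4%) and in 2 of the 43 (4.65%, 0.568% to 15.8%), with at most 2 UMIs in a cell. In cells with a Cd3e UMI the Xist share was 95.6% in Ctrl and 93.8% in KD, in cells with a Csf1r UMI it was 87.8% and 88.7%, and in Ptprb or Stab2 cells it was 80.8% and 83.6%.

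Keratin-led cells were the deeper ones, and the gap remained at equal depth. After thinning of each cell to 1500 UMIs, for which 2 keratin-led cells of Ctrl and 3 of KD were too shallow, Xist was seen in 2 of 82 keratin-led cells in Ctrl (2.44%) and in 0 of 40 in KD, which allows a share of up to 7.50% (3 of the 40 cells), with an exact upper limit of 8.81%. These limits are for cells with an Xist UMI at this depth and not for cells that express Xist. At the same depth it was seen in 74.3% and 74.7% of Cd3e cells, in 61.5% and 58.0% of Csf1r cells and in 70.0% and 70.7% of Ptprb or Stab2 cells. The Y-linked genes Ddx3y, Kdm5d, Eif2s3y and Uty had 0 UMIs in keratin-led cells of both libraries. Rhox5 with little or no Xist was thus a shared property of keratin-led cells that the rule had not used, and it was seen in both libraries.

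**Figure D3:**
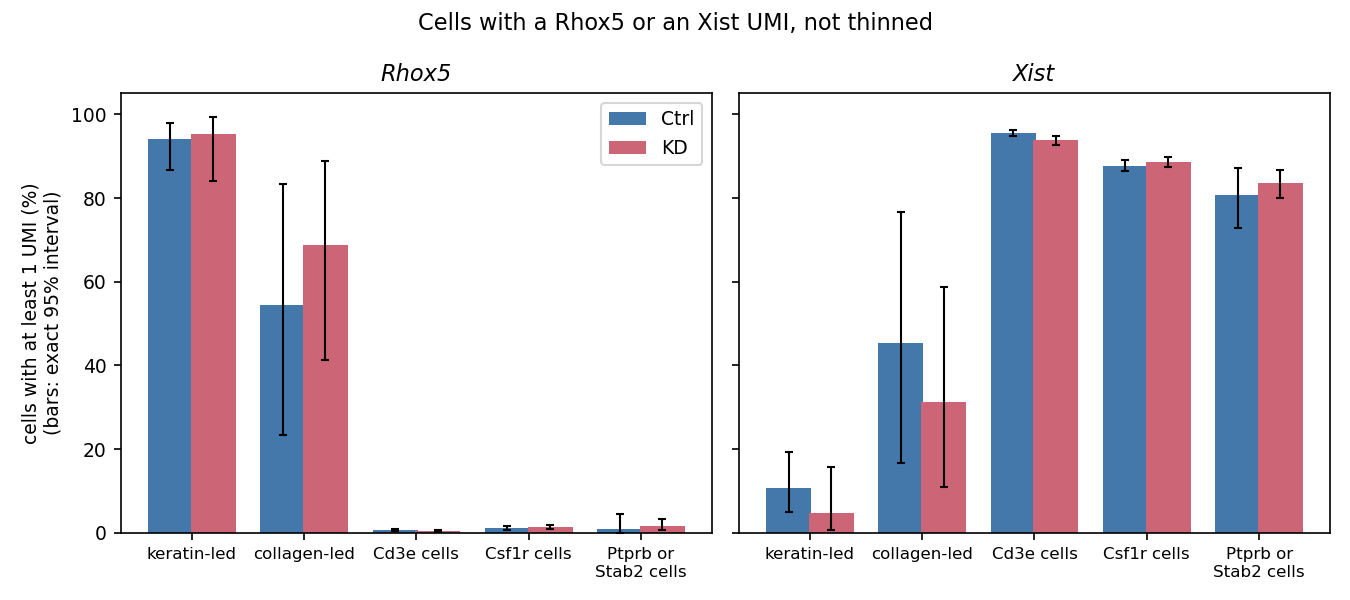
Bars give the share of cells (%) with at least 1 UMI of Rhox5 (left) or Xist (right) in keratin-led, collagen-led, Cd3e, Csf1r and Ptprb or Stab2 cells of Ctrl (blue) and KD (red), without thinning, with exact 95% intervals as error bars. Keratin-led cells stand at 94.0% and 95.3% for Rhox5 and at 10.7% and 4.65% for Xist, the reverse of the 3 groups on the right.

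The collagen-led cells fell on both sides of this divide. In Ctrl 5 of the 11 cells had Xist and no Rhox5, and 6 had Rhox5 and no Xist. In KD 4 of the 16 cells had Xist only, 10 had Rhox5 only, 1 had both and 1 had neither. The fibroblast genes followed Xist. In Ctrl the 5 Xist cells carried 72.4 to 686 collagen UMIs per 10000, with Dcn in 5 of them, Bicc1 in 5 and Slit3 in 4. The 6 Rhox5 cells carried 1.43 to 21.2 collagen UMIs per 10000, had no UMI of Col1a2, Dcn, Lum, Slit3 or Bicc1, and had Cavin3 in all 6. In KD the 4 Xist cells carried 18.6 to 515 collagen UMIs per 10000, with Dcn and Bicc1 in all 4, and the 10 Rhox5 cells carried 4.62 to 27.7, with no UMI of Col1a2, Lum, Slit3 or Bicc1. Dcn, which encodes the matrix proteoglycan decorin, had 7 UMIs in 4 of those 10 cells.

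The label of fibroblast-like therefore held by markers for the Xist cells and not for the Rhox5 cells, which were more than the Xist cells in both libraries. This split was chosen after its values had been seen and is a description. The 1 KD cell with both genes had 7 Xist and 8 Rhox5 UMIs together with 150 UMIs of Dcn, 42 of Cxcl12, 20 of Rgs5 and 13 of Lrat. Rgs5 marks pericytes and Lrat, which makes retinyl esters, marks hepatic stellate cells. Of the cells with no lead, 4 of 8 in Ctrl and 3 of 4 in KD had Rhox5.

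Among all 27 collagen-led cells, the leading genes beside the collagens of the rule were Dcn, Gpc6, Slit3, Col5a1, Pdzrn3, Serping1, Bicc1, Tagln, Pcdh7, Lhfp, Rbms3 and Sox5. Slit3, a secreted guidance ligand, stood at 2075 CPM in Ctrl and 516 CPM in KD, but in only 4 of 11 and 2 of 16 cells. Gpc6, a cell surface glypican, stood at 760 and 574 CPM in 6 and 7 cells. Col5a1, a chain of collagen V, stood at 936 and 620 CPM and was seen, like Lhfp, in 10 of 11 and 14 of 16 cells.

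KD was then compared with Ctrl within keratin-led cells on summed UMIs. Of 5534 genes with at least 50 UMIs over both libraries, 57 were at least 2-fold higher in KD (1.03%) and 373 at least 2-fold lower (6.74%), and the median log2 ratio was -0.13. Of 88 ribosomal protein genes in this set, 77 had a ratio above 0, with a median of 0.37, and their share of all UMIs was 12.0% in Ctrl and 15.8% in KD. Against these figures, interferon response genes and immediate early genes were more often lower in KD, and genes of glycolysis and hypoxia more often higher.

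Of 3 other genes that the study followed in these lines, Runx1, which encodes a transcription factor, stood at 205 CPM in Ctrl and 176 CPM in KD, a log2 ratio of -0.22 (-0.56 to 0.12). Ctla2a, an inhibitor of cysteine proteases, stood at 36.0 and 114 CPM, a log2 ratio of 1.66 (1.09 to 2.25), in 22 of 84 and 23 of 43 cells. Fcho1, an endocytosis gene, had 9 and 7 UMIs.

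Interferons act through dedicated transcription factors and induce guanylate-binding proteins, immunity-related GTPases and chemokines. Of 13 interferon response genes 9 could be compared, of which 7 were at least 2-fold lower in KD, beside 6.74% of all genes compared, and none at least 2-fold higher, with a median log2 ratio of -1.59. The cells of the 2 libraries overlapped but lay apart. A keratin-led cell carried 15.6 UMIs of the list per 10000 at the median in Ctrl, with a range of 2.01 to 84.6 and quartiles of 10.1 and 28.6. In KD the median was 4.64, with a range of 0 to 52.2 and quartiles of 2.61 and 8.77. The upper quartile of KD thus lay below the lower quartile of Ctrl.

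The chemokine Cxcl10 had 598 UMIs in 50 Ctrl cells and 73 UMIs in 11 KD cells, a log2 ratio of -2.03 (-2.40 to -1.68). Irf1, a transcription factor of the interferon-gamma response, had 287 and 42 UMIs, a log2 ratio of -1.77 (-2.27 to -1.30). Gbp2, a guanylate-binding protein, had 372 and 60 UMIs, a log2 ratio of -1.63 (-2.05 to -1.23). The immunity-related GTPases were lower too, with log2 ratios of -1.74 for Igtp, -1.59 for Iigp1 and -1.15 for Irgm1. Gbp3, a further guanylate-binding protein, stood at -0.62 (-1.60 to 0.28). Isg15, a ubiquitin-like protein that type I interferon induces strongly, was the exception at 0.92 (0.52 to 1.32), and 1 KD cell held 31.7% of its KD UMIs. Cxcl9, with 28 and 14 UMIs, fell short of the minimum and had a log2 ratio of 0.00 (-1.04 to 0.98).

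The genes that interferon also induces for antigen presentation differed less. Of the 9 MHC class I genes 5 had an interval below 0 and 2 an interval above 0, and their sum stood at 8967 CPM in Ctrl and 8441 CPM in KD, a log2 ratio of -0.09 (-0.14 to -0.04). Nlrc5, the transactivator of MHC class I genes, was lower at -1.73 (-2.31 to -1.20), yet the list had a median of -0.21. Nlrc5 was the only one of the 9 past 2-fold, beside 6.74% of all genes compared that were at least 2-fold lower. B2m, the light chain of MHC class I, stood at 2173 and 2196 CPM, a log2 ratio of 0.02 (-0.08 to 0.11). The heavy chains H2-K1 and H2-D1 had ratios of -0.21 and 0.11, and the peptide transporter genes Tap1 and Tap2 had -0.57 and -0.80. Among 6 genes for phagocytosis and checkpoint ligands 1 was past 2-fold, again beside 6.74% of all genes compared that were lower. This was Cd274, which encodes PD-L1 and is itself induced by interferon. It had 212 UMIs in 53 Ctrl cells and 25 UMIs in 13 KD cells, a log2 ratio of -2.08 (-2.74 to -1.48). Cd47, the signal that inhibits phagocytosis, stood at 295 and 353 CPM, a log2 ratio of 0.26 (0.00 to 0.51).

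The lower interferon response was not confined to keratin-led cells. The 13 genes summed to 2059 CPM in Ctrl and 911 CPM in KD keratin-led cells, a log2 ratio of -1.18 (-1.31 to -1.04). In cells with a Csf1r UMI the sums were 5077 and 2097 CPM, a ratio of -1.28 (-1.29 to -1.26). In Ptprb or Stab2 cells they were 2920 and 1051 CPM (-1.47, -1.55 to -1.40), and in cells with a Cd3e UMI 788 and 558 CPM (-0.50, -0.54 to -0.46). The macrophage markers in keratin-led cells, at 127 and 99.1 CPM, had a ratio of -0.36 (-0.82 to 0.08), and their part in the interferon values was not tested.

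The promoters of these genes are shown because the list is defined by its response to interferon. Windows from 250 bases before to 50 after the start of each gene (RefSeq, GRCm38.p6) were searched on both strands for GAAA followed by any 2 bases and GAAA again, the interferon-stimulated response element (ISRE), for TTCNNNGAA, the gamma-activated site (GAS), and for ACGTG, the core of the hypoxia response element. These letters were found in 3.44%, 8.30% and 19.6% of 32851 windows, and in at least 1 window of 3.99%, 9.55% and 21.8% of 27025 genes, since some genes have several windows. Of the 9 interferon genes compared, 7 had a window, of which 6 held the ISRE letters and 2, Irf1 and Igtp, the GAS letters. By window these were 6 and 2 of 9. A match is a description of the letters and not a site of binding. Stretches around 1 match each follow 5′ to 3′ on the strand of the gene, with the match in capitals, from chr11:53769894-53769962 (plus strand) for Irf1, chr3:142620574-142620643 (plus strand) for Gbp2, chr5:92349063-92349132 (minus strand) for Cxcl10 and chr4:156200845-156200926 (minus strand) for Isg15. In Gbp2 the match is read on the opposite strand, and in Isg15 there are 3 matches that overlap.
Irf1: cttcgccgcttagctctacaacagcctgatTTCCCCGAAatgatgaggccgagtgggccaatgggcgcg
Gbp2: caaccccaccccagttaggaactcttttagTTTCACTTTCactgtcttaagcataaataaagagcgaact
Cxcl10: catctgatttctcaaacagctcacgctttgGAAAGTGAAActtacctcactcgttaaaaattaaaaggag
Isg15: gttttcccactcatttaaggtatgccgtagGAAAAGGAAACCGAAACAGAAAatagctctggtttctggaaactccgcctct

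Of these 4 genes Isg15, with its 3 matches, was the only one that was not lower in KD.

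**Figure D4:**
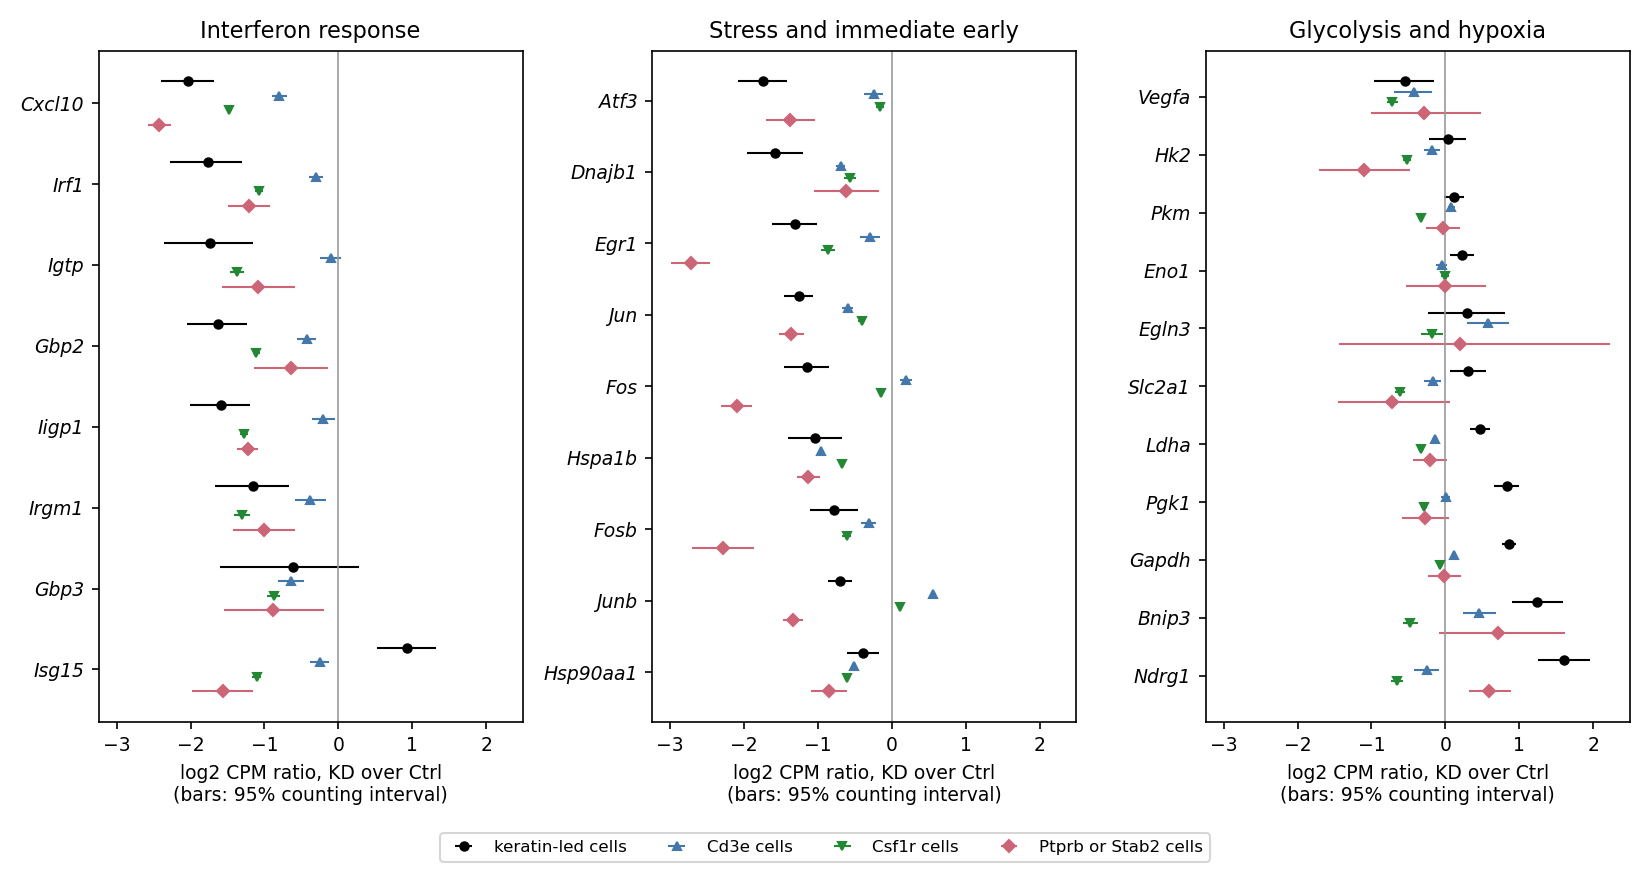
Points give the log2 ratio of CPM, KD over Ctrl, with exact 95% counting intervals, for the interferon response (left), stress and immediate early (middle) and glycolysis and hypoxia genes (right) with at least 50 UMIs in keratin-led cells. Black circles are keratin-led cells, blue triangles Cd3e cells, green triangles Csf1r cells and red diamonds Ptprb or Stab2 cells. In keratin-led cells 7 of the 8 interferon genes shown and all 9 immediate early genes lie below 0, and 10 of 11 glycolysis and hypoxia genes lie above 0.

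Immediate early and heat shock genes are switched on within minutes by growth factors, stress and tissue dissociation. Of 10 genes of this kind 9 could be compared, of which 6 were at least 2-fold lower in KD, beside 6.74% of all genes compared, and none higher, with a median log2 ratio of -1.15. The list made up 37.1 UMIs per 10000 at the median of Ctrl cells (4.06 to 324) and 18.8 at the median of KD cells (0 to 73.2), so that the groups overlapped over most of the KD range. Atf3, a stress-induced transcription factor, had 603 and 90 UMIs, a log2 ratio of -1.74 (-2.08 to -1.42). The co-chaperone gene Dnajb1 stood at -1.57 (-1.96 to -1.21), and the immediate early factors Egr1, Jun and Fos at -1.31, -1.26 and -1.15. Junb, a further AP-1 subunit, and Hsp90aa1, a chaperone gene, had smaller ratios of -0.70 and -0.39.

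The sum of this list was 5007 CPM in Ctrl and 2487 CPM in KD, a log2 ratio of -1.01 (-1.09 to -0.93). In Ptprb or Stab2 cells the ratio was -1.44, in Cd3e cells -0.52 and in Csf1r cells -0.37. Of the 7 genes with a promoter window, none held the ISRE or the GAS letters and 1, Dnajb1, held ACGTG.

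Genes of glycolysis and hypoxia, many of which the factor HIF-1 induces when oxygen is low, lay on the other side. Of 14 such genes Aldoa, whose symbol names 2 features, was left out, and 11 of the other 13 could be compared, of which 2 were at least 2-fold higher in KD, beside 1.03% of all genes compared, and none lower, with a median log2 ratio of 0.31. The list made up 52.0 UMIs per 10000 at the median of Ctrl cells (5.62 to 136) and 68.2 at the median of KD cells (32.1 to 259), and the groups overlapped widely. Ndrg1, a stress gene induced by hypoxia, had 117 UMIs in 47 Ctrl cells and 177 UMIs in 29 KD cells, a log2 ratio of 1.60 (1.26 to 1.95). Bnip3, which directs mitochondria to autophagy in hypoxia, had 134 and 158 UMIs, a log2 ratio of 1.24 (0.90 to 1.58). The glycolytic genes Gapdh, Pgk1 and Ldha had ratios of 0.86, 0.83 and 0.47. Pkm, which encodes pyruvate kinase, and Hk2, a hexokinase, had 0.11 (-0.02 to 0.25) and 0.03 (-0.22 to 0.28). Vegfa, the vascular growth factor that HIF-1 also induces, went against the list at -0.55 (-0.96 to -0.15).

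The list summed to 6083 CPM in Ctrl and 8839 CPM in KD keratin-led cells, a log2 ratio of 0.54 (0.49 to 0.59). The same sum had a ratio of 0.02 in Cd3e cells, -0.04 in Ptprb or Stab2 cells and -0.26 in Csf1r cells, with counting intervals that did not reach that of keratin-led cells. The letters ACGTG were found in 9 of the 15 promoter windows of these genes, beside 19.6% of all windows, and in at least 1 window of 9 of the 10 genes that had one, beside 21.8% of all genes. In Bnip3 they lie as a palindrome that matches on both strands, shown in capitals on the gene's minus strand at chr7:138909579-138909644.
Bnip3: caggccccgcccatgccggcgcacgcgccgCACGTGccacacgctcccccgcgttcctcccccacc

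**Figure D5:**
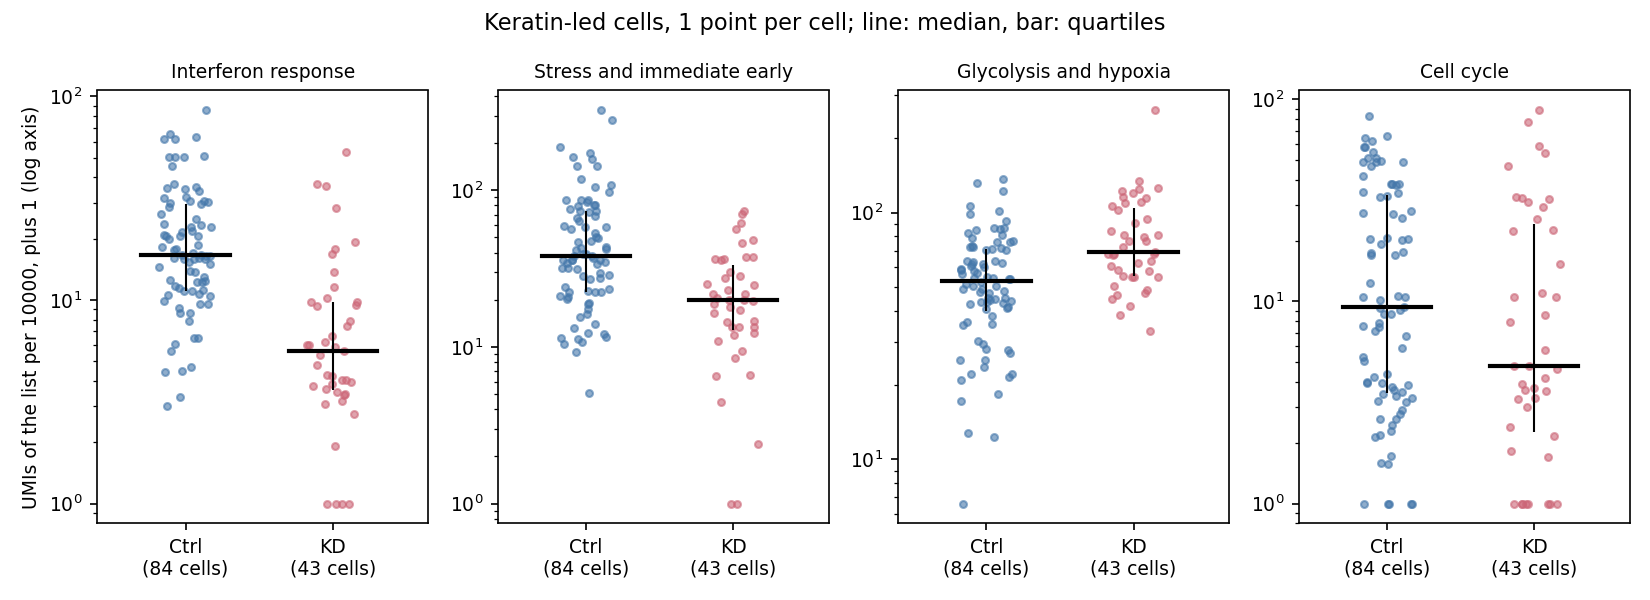
Each point is 1 keratin-led cell, with the UMIs of a gene list per 10000 (plus 1, log axis) in Ctrl (84 cells) and KD (43 cells), and lines give the median with bars for the quartiles. The medians of Ctrl and KD were 15.6 and 4.64 for interferon response genes, 37.1 and 18.8 for immediate early genes and 52.0 and 68.2 for glycolysis and hypoxia genes. For cell cycle genes the medians were 8.36 and 3.79, and the cells spread from 0 to above 80 in both libraries.

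Cell cycle genes did not share a direction. Of 14 genes 1 was at least 2-fold higher and 1 at least 2-fold lower in KD, beside 1.03% and 6.74% of all genes compared, and the sum was 1777 and 1825 CPM, a log2 ratio of 0.04 (-0.07 to 0.15). Mki67, which marks cycling cells, stood at -1.14 (-1.90 to -0.45) with UMIs in 32 of 84 Ctrl and 12 of 43 KD cells, and Top2a, the topoisomerase of dividing cells, at -0.61 (-0.89 to -0.33). Ube2c, a ubiquitin-conjugating enzyme of mitosis, stood at 1.01 (0.73 to 1.29), but 1 KD cell held 52.1% of its KD UMIs. Without the highest cell of each library the ratio of the sum was -0.16, and with every cell weighted the same it was -0.31.

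Several secreted signals for myeloid cells were lower in KD. Of 10 chemokine and growth factor genes compared, 4 were at least 2-fold lower, beside 6.74% of all genes compared, and none higher, with a median of -0.60. Cxcl1 and Cxcl2, which recruit neutrophils, had log2 ratios of -1.47 (-1.69 to -1.24) and -2.12 (-2.51 to -1.75). Ccl7, a monocyte chemokine, had 69 UMIs in 13 Ctrl cells and 8 UMIs in 6 KD cells (-2.11, -3.37 to -1.05). Csf1, the growth factor of macrophages, had 255 and 60 UMIs (-1.08, -1.52 to -0.67). Ccl2, the most abundant chemokine of these cells, stood at 2101 and 1781 CPM (-0.24, -0.34 to -0.13), and 1 KD cell held 39.8% of its KD UMIs. The sum had a ratio of -0.63 (-0.72 to -0.55) in keratin-led cells, -0.83 in Ptprb or Stab2 cells, 0.08 in Csf1r cells and 0.39 in Cd3e cells. With cells that had a UMI of a further 5 immune genes also left out, the ratio in keratin-led cells was -0.39. Over all cells outside the selection, Cxcl1 and Cxcl2 were higher in KD, with ratios of 0.47 and 0.71.

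Matrix and glutathione genes showed smaller differences. None of 11 matrix remodelling genes passed 2-fold in either direction and their median was 0.12. Of 8 glutathione genes 1 was at least 2-fold lower, beside 6.74% of all genes compared, and none higher. It was Gclc, the catalytic subunit of the enzyme that limits glutathione synthesis, with 145 UMIs in 31 Ctrl cells and 16 UMIs in 10 KD cells (-2.18, -3.02 to -1.43). Its partner subunit Gclm stood at -0.71.

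A set of 3990 genes was at least as high in these cells as outside them, in the library where the gene's CPM was higher. For the lowest ratios this library was Ctrl. They included those of Cxcl11, Arc, Mecom, Tgtp2, Nav2, Taf4b, Limk2, Gclc and Gipc2. In KD, Cxcl11 (3.36 against 9.58 CPM), Tgtp2, Taf4b and Gclc were lower in these cells than outside them, and the others named were higher. Cxcl11 and Tgtp2 belong to the interferon response and were not on the list, with 95 and 2 UMIs (-4.57, -7.63 to -2.67) and 53 and 3 UMIs (-3.14, -5.46 to -1.51). Arc, an immediate early gene, had 108 UMIs in 35 Ctrl cells and 4 UMIs in 3 KD cells (-3.75, -5.65 to -2.35). The counts of these genes in KD are small, and the intervals are correspondingly wide.

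The highest ratios were those of Crct1 and Sprr1b, genes of cornifying epithelium, but 1 KD cell held 86.4% and 92.9% of their KD UMIs. Next came Ndufa4l2, Ptn, Ndrg1, Rbp4, Eci2, Ncam1, Ero1a and Selenom. Ndufa4l2, a mitochondrial gene induced by HIF-1, had 90 UMIs in 21 of 84 Ctrl cells and 146 UMIs in 20 of 43 KD cells (1.70, 1.31 to 2.10). Ero1a, an oxidase of the endoplasmic reticulum that hypoxia also induces, had 102 and 135 UMIs (1.41, 1.03 to 1.79). Ncam1, an adhesion molecule, had 45 and 64 UMIs (1.51, 0.94 to 2.09).

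Collagen-led cells allowed only a coarse comparison, because 11 Ctrl cells were set against 16 KD cells and few cells held most of the stromal RNA. Of 882 genes with at least 50 UMIs, 53 were at least 2-fold higher in KD (6.01%) and 131 at least 2-fold lower (14.9%), with a median of 0.01. Of 12 fibroblast genes compared, 3 were higher and 5 lower. Col1a1 had 839 UMIs in Ctrl and 256 in KD (-2.16, -2.37 to -1.96), Col1a2 had 349 and 121 UMIs (-1.98, -2.29 to -1.68) and Col3a1 had 802 and 331 UMIs (-1.73, -1.92 to -1.54). These 3 genes are part of the rule. One cell in each library held 47.1% and 48.8% of the Col1a1 UMIs and 63.1% and 34.1% of the Col3a1 UMIs. The proteoglycan genes Dcn and Lum went the other way, with 82 and 307 UMIs (1.45, 1.10 to 1.82) and 12 and 52 UMIs (1.66, 0.74 to 2.70).

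The fibroblast genes summed to 25028 CPM in Ctrl and 10759 CPM in KD, a log2 ratio of -1.22 (-1.31 to -1.13). This sum, of 2834 and 1667 UMIs, includes genes of the rule, so its ratio depends on the selection. Col1a1, Col1a2, Col3a1 and Sparc gave 839, 349, 802 and 350 UMIs of it in Ctrl and 256, 121, 331 and 239 in KD. The list without these genes was not compared. Cells with Rhox5 and no Xist were 6 of 11 in Ctrl and 10 of 16 in KD. Among the 5 cells of each library with at least 2 Xist UMIs the ratio of the same sum was -0.78. In these cells Col1a1 stood at 14012 and 4018 CPM (-1.80, -2.04 to -1.57) and Tnc, the matrix protein tenascin C of activated stroma, at 3135 and 329 CPM (-3.25, -4.12 to -2.49). Of the Col1a1 UMIs 1 cell held 395 of 818 in Ctrl and 125 of 183 in KD. Of the Tnc UMIs 1 cell held 103 of 183 in Ctrl and 11 of 15 in KD. Dcn stood at 1405 and 6588 CPM (2.23, 1.87 to 2.60), and 1 of the 5 KD cells held 150 of its 300 UMIs. Rgs5 and Lrat had 1 UMI each in Ctrl and 32 and 16 UMIs in KD, in 3 and 2 cells. The KD cell with both Xist and Rhox5 held 20 of these 32 and 13 of these 16 UMIs. The 5 cells of each library thus differed in which genes they carried, with much of each count in 1 cell. Whether 5 cells of pooled lesions stand for the stroma of a group cannot be told.

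The lists that were lower in keratin-led cells were also lower in collagen-led cells. Interferon response genes summed to 4672 and 1536 CPM (-1.60, -1.83 to -1.38), with 3 of 4 genes compared at least 2-fold lower, beside 14.9% of all genes compared in these cells. Immediate early genes summed to 8513 and 3918 CPM (-1.12, -1.27 to -0.97), with 5 of 10 lower. In the cells with at least 2 Xist UMIs the ratios were -3.02 and -1.46. The interferon genes ranged there from 11.7 to 145 UMIs per 10000 in Ctrl and from 1.34 to 19.9 in KD. A single Ctrl cell of 13383 UMIs, at 140 per 10000, weighed heavily in the Ctrl sum. Glycolysis and hypoxia genes, by contrast, had a ratio of -0.23 (-0.42 to -0.04), with 1 of 7 lower and none higher. Matrix remodelling genes had a ratio of -1.29 (-1.43 to -1.16), with 7 of 10 at least 2-fold lower, again beside 14.9%. Among them were Timp3, an inhibitor of metalloproteinases (125 and 24 UMIs), and Fn1, which encodes fibronectin (286 and 158 UMIs). Cells with at least 2 Xist UMIs held 58377 of the 113232 UMIs of collagen-led cells in Ctrl and 45540 of 154944 in KD. The part of this difference in the matrix ratio was not tested. The genes with the lowest ratios, Ereg, Saa3, Thbs1, Enah, Atp7a, Ern1, Cacna1c, Neat1, Bmper and Tnc, took 47.9% to 89.8% of their Ctrl UMIs from 1 cell. The highest included G0s2, Cebpd, Pcdh9, Lum, Atp5c1, Dcn and Cox7a2l, of which G0s2 took 85.5% of its KD UMIs from 1 cell.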

How the data were processed

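The labels give 1 library per group, of a hairpin each, and the study's methods give the pooled mice and the CD45 selection. The authors ran Cell Ranger 7.1.0 on GRCm39 (submitters' processing notes, which also name Seurat 5.1.0 and R 4.4.1) and deposited, without normalization, the UMI counts of each gene in each barcode. The 21359 deposited cells were filtered by the study's limits of 200 genes or more and no more than 6000 genes, 30000 UMIs or 10% mitochondrial UMIs. These limits were the only treatment of doublets. Selected cells held 512 to 29888 UMIs in Ctrl and 746 to 28046 in KD.

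UMIs were summed per library and scaled to CPM (Python 3.11.15, pandas 2.3.3, SciPy 1.17.1). Shares have Clopper-Pearson intervals, counts Poisson intervals and log2 ratios exact conditional binomial intervals. Those of the log2 ratios were checked on simulated Poisson counts, the model they assume. The simulation left out the uneven spread of UMIs between cells, so it does not show how the intervals cover these data. A count of 0 was read against 3 UMIs. Genes with at least 50 UMIs over both libraries were compared and called at 2-fold. Leading genes were the 15 with the highest fold over all cells outside the selection (1 CPM added, at least 50 UMIs in each library and UMIs in 10% of its cells). The extreme ratios were the 10 highest and 10 lowest (5 CPM added) among genes at least as high in the cells as outside them, without mitochondrial, ribosomal, receptor segment, sex-linked and unnamed genes. This minimum had to hold only in the library where the gene's CPM was higher, so it favours large ratios. Some genes that these rules select are not reported here by name, but counts and sums include them. The other genes named are the rule's, those the study followed, or belong to 25 lists of 233 genes. Vim, and the subset of collagen-led cells by Xist and Rhox5, were chosen after their values were seen. The members and the lists were chosen with earlier results of these data known. Hairpin targets were matched to transcripts and promoters to RefSeq windows of GRCm38, so no coordinate is given in the build of the counts.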

Additional observations from a re-analysis of the deposited data

Results flagged for a closer look

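Some of the gene lists whose ratio of KD over Ctrl lay on opposite sides of 0 in keratin-led cells and in another cell type are given here. There was 1 library per group and no test of the difference. Other lists did so too. Fibroblast genes, with those of the rule, had 0.36 (0.21 to 0.50) in keratin-led and -0.43 (-0.50 to -0.37) in Cd3e cells. Cholangiocyte markers had -0.27 (-0.44 to -0.10) in keratin-led and 0.33 (0.26 to 0.40) in Csf1r cells. Glycolysis and hypoxia genes had a log2 ratio of 0.54 (0.49 to 0.59) in keratin-led cells and -0.26 (-0.27 to -0.25) in cells with a Csf1r UMI. Chemokine and growth factor genes had -0.63 (-0.72 to -0.55) in keratin-led cells, against 0.39 (0.38 to 0.41) in cells with a Cd3e UMI and 0.08 (0.06 to 0.09) in cells with a Csf1r UMI.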

How the results depend on the processing

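No paired analysis was possible because each group has 1 library, and no replicate could be left out. Of the results recomputed, 1 changed sign, the sum of cell cycle genes in keratin-led cells, whose ratio of 0.04 lay between -0.01 (median-ratio scaling) and -0.31 (every cell weighted the same) under 5 alternatives. The difference in the share of selected cells stayed between -0.240 (cells thinned to 1500 UMIs) and -0.484 percentage points (cells with Ptprc as denominator). With a wider lead (5 UMIs or more and a ratio of 2 or more), keratin-led cells made up 68.9% of selected cells in Ctrl and 54.0% in KD, and the ratio of fibroblast genes in collagen-led cells was -1.51. With every cell weighted the same, 147 genes in place of 57 were at least 2-fold higher in KD keratin-led cells, and the summed ratios were -1.34 for interferon response and -1.28 for immediate early genes in keratin-led cells, and -0.97 for fibroblast and -1.28 for immediate early genes in collagen-led cells. A stricter cell filter (at least 500 genes, at most 5% mitochondrial UMIs) gave -1.63 for fibroblast genes, and leaving out cells with UMIs of 5 further immune genes gave -1.30 for immediate early genes in collagen-led cells. Every fibroblast sum given here and below includes Col1a1, Col1a2, Col3a1 and Sparc, which are genes of the rule. Median-ratio scaling left 47 genes higher and 425 lower in keratin-led cells.

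Further alternatives were chosen after seeing the data. Without the cell with most UMIs of the list in each library, the ratios were -1.32 for interferon response and 0.45 for glycolysis and hypoxia genes in keratin-led cells and -0.81 for fibroblast genes in collagen-led cells. With the collagen-led cells that had Rhox5 and no Xist added to keratin-led cells, they were -0.997 for interferon response, -0.90 for immediate early and 0.41 for glycolysis and hypoxia genes. In the collagen-led cells with at least 2 Xist UMIs they were -0.78 for fibroblast, -3.02 for interferon response and -1.46 for immediate early genes. The number of cells, 43 and 16 in KD, limits every value, and 3 UMIs are 5.04 CPM in KD keratin-led cells, so that genes below this level rest on 2 UMIs or fewer there.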
